A study of Mus musculus with 31 samples.

Results

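The endoplasmic reticulum (ER) and integrated stress response was followed through 33 mouse genes listed by name. All 33 were found among the 29120 gene IDs of the count files, and all 33 passed the filter on low counts in both tissues. They fall into 6 roles: 3 sensors, 3 transcription factors, 7 targets of Atf4, 2 genes of feedback and growth control, 14 ER chaperones and folding factors, and 4 genes of ER-associated degradation. The series compared Gpr34-/- with wild-type mice, all C57BL/6, and Gpr34 encodes a receptor for lysophosphatidylserine, a lipid signal. RNA was sequenced from bone-marrow-derived dendritic cells and from spleens.

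The dendritic cells formed 4 groups of 3 libraries each: LPS-treated cells labelled Gpr34-/- (replicates 2, 3 and 4), naive cells labelled Gpr34-/- (replicates 2, 3 and 4), LPS-treated wild-type cells (replicates 1, 2 and 3) and naive wild-type cells (replicates 1, 2 and 4). Marrow came from the hind legs of male mice aged 8 to 16 weeks and was cultured for 10 days with the supernatant of a cell line that secretes GM-CSF. The cells were then reseeded without serum, and the treated ones received lipopolysaccharide (LPS), a bacterial cell wall component, on day 11 for 8 h. The LPS dose was not given in the labels. The spleens came from 9 Gpr34-/- and 10 wild-type mice aged 12 weeks, with no treatment. The labels do not say whether dendritic cell replicates came from separate animals, so p-values for these cells measure the spread between libraries, which may be technical. The knockout is not described as limited to a cell type.

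The unfolded protein response is set off when unfolded proteins gather in the ER. Its sensors are Ern1 (IRE1alpha), which splices the Xbp1 messenger RNA, Eif2ak3 (PERK), which phosphorylates the translation factor eIF2alpha, and Atf6, which is cut loose from the membrane to act as a transcription factor. Phosphorylated eIF2alpha, also produced by other kinases in the integrated stress response, lowers general translation and favours translation of Atf4, which switches on genes of amino acid supply and Ddit3 (CHOP). Spliced Xbp1 and Atf6 raise chaperones, folding enzymes and the degradation machinery. Dendritic cells are known for a high basal activity of the IRE1alpha branch, and plasma cells for a large ER built under Xbp1. Counts per gene do not separate spliced from unspliced Xbp1 and do not show phosphorylation, cleavage or translation.

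The dendritic cell libraries held 38998746 to 74164853 counts each, and the spleen libraries held 56834377 to 133277070. Levels are given as CPM, counts relative to library size after scaling with composition factors (TMM). Genes were called where edgeR's quasi-likelihood test gave an adjusted p under 0.05, with Benjamini-Hochberg adjustment over all genes of the tissue, and fold changes are log2 values with standard errors (SE). The labelled genotype was checked on Gpr34 itself. In dendritic cells labelled knockout it had 0, 117 and 104 counts after LPS and 0, 120 and 4 counts in naive cells, against 125, 65 and 65 counts in LPS-treated and 324, 199 and 226 counts in naive wild-type cells. LPS replicates 3 and 4 labelled knockout therefore lay within the counts of LPS-treated wild-type cells. Naive replicate 3 labelled knockout also held Gpr34 reads, but fewer than any naive wild-type library, although it was the largest library with 74164853 counts. The words "labelled knockout" are kept for the dendritic cells. In spleens the knockout libraries had 42 to 156 counts and the wild-type ones 308 to 986. Which part of Gpr34 was deleted was not stated, so these counts do not settle the genotype. The 8 dendritic cell markers summed to 11062 to 20192 CPM in the 12 cell libraries, with Itgax at 501 to 1036 and Cd74 at 7965 to 12693 CPM. Flt3, also among the 8, had 10.7 to 28.4 CPM. The macrophage markers Adgre1 and Csf1r were also present in these libraries, at 117 to 664 and 392 to 1076 CPM. In whole spleens the same 8 markers summed to 10713 to 24255.5 CPM, so the sum alone does not single out dendritic cells. In whole spleens and mixed cultures, fewer cells of a type and less RNA per cell cannot be told apart.

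Promoters are shown for 6 members because they carry the known response elements of the 2 arms of the response. The sequences are those of RefSeq (GRCm38.p6), the 250 bases before the annotated start, written 5′ to 3′ on the gene's strand, with matches in capitals. A match on the other strand appears as the reverse complement of its motif. Hspa5, Hsp90b1 and Creld2 hold the ER stress response element, which is CCAAT and CCACG with 9 bases of any kind between them. Herpud1 holds the ER stress response element II, which is ATTGG and CCACG with 1 base between them. It also holds the C/EBP-ATF composite element, TGATG and AA with 1 base between them, which Asns and Chac1 share.
Hspa5, chr2:34771840-34772089, plus strand: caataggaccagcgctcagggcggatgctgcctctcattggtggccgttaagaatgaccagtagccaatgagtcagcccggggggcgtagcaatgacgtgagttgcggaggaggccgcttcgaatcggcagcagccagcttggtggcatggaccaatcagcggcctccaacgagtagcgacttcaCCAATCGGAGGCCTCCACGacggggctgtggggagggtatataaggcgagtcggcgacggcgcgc
Hsp90b1, chr10:86705445-86705694, minus strand: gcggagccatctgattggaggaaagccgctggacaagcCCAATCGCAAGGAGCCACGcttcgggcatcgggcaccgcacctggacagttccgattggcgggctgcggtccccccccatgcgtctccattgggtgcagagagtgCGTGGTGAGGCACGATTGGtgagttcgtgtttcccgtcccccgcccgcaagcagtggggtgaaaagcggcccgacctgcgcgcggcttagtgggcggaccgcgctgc
Creld2, chr15:88819396-88819645, plus strand: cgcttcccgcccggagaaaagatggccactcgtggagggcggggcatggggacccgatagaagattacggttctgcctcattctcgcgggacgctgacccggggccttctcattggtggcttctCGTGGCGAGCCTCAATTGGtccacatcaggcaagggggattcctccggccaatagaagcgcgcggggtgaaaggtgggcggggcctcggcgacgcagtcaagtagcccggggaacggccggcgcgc
Herpud1, chr8:94386179-94386428, plus strand: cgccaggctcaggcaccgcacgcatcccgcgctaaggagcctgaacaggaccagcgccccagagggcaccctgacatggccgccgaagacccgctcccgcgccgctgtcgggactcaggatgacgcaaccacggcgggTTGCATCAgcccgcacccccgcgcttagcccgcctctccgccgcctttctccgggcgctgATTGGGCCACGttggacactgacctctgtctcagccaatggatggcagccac
Asns, chr6:7693210-7693459, minus strand: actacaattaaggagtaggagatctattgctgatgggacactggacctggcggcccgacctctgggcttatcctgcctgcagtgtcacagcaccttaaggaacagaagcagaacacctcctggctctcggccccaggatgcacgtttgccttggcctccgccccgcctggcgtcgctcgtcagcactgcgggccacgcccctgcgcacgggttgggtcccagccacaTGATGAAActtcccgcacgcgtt
Chac1, chr2:119350992-119351241, plus strand: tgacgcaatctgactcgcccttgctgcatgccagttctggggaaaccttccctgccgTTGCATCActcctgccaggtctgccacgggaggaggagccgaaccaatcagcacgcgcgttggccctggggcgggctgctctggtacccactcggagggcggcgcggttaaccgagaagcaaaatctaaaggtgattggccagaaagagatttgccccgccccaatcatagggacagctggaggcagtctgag

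Promoter windows of 250 bases before to 50 after the start were found for 30 of the 33 members, all but Atf6, Hyou1 and Manf, and 32851 windows of that length were searched on both strands. The ER stress response element was found in 39 windows (0.119%), and 8 of its genes were members: Calr, Canx, Creld2, Dnajc3, Hsp90b1, Hspa5, Pdia6 and Syvn1. It lies at bases -65 to -47 of Hspa5 and at both -212 to -194 and -107 to -89 of Hsp90b1. Element II was found in 12 windows (0.0365%), which included Dnajb11 (ATTGGCCCACG, bases 8 to 18) and Herpud1 (bases -52 to -42). The composite element was commoner, in 1304 windows (3.97%), and its members were Asns, Chac1, Herpud1 and Trib3. The unfolded protein response element, TGACGTGG, was found in 222 windows (0.676%) and in no member's window. No matches of different motifs overlapped. A match shows only that these letters are there.

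LPS raised most chaperones and degradation genes and part of the Atf4 targets in wild-type dendritic cells and lowered 5 members, the sensor Eif2ak3, the transcription factor Xbp1, the Atf4 target Phgdh, the chaperone partner Sdf2l1 and the degradation gene Herpud1. Of the 33 members, 17 were called higher, against 18.1% of all 16965 genes tested, and 5 lower, against 15.8%. The members' median fold change was 0.46, and that of all genes was -0.03. In cells labelled knockout 12 members were called higher, against 15.3% of all genes, and 1 lower, against 13.4%, with a median of 0.46 for the members and -0.02 for all genes. Without composition factors the median of all genes shifted to -0.44 in wild-type cells and -0.35 in cells labelled knockout, and the members' calls became 5 higher and 7 lower in wild-type cells and 3 higher and 5 lower in cells labelled knockout. Of the rises, those of Atf4, Asns and Hspa5 were then still called in both genotypes and those of Chac1 and Dnajb11 in wild-type cells, and the calls of all other higher members, named below, were lost. The changes below are therefore relative to the bulk of genes. The shares of all genes called belong to the fit with composition factors, so the counts without these factors cannot be set against them. The TMM factors were 0.85 to 0.92 in LPS-treated and 1.10 to 1.16 in naive libraries. In wild-type cells the 3 LPS-treated libraries lay all above the 3 naive ones for 23 members, against 25.6% of all genes, and all below for 6, against 25.3%, so that 50.9% of all genes were apart in either direction. In cells labelled knockout the groups were apart in this way for 13 members upward, against 21.3% of all genes, and for 1 downward, against 20.4%.

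**Figure D1:**
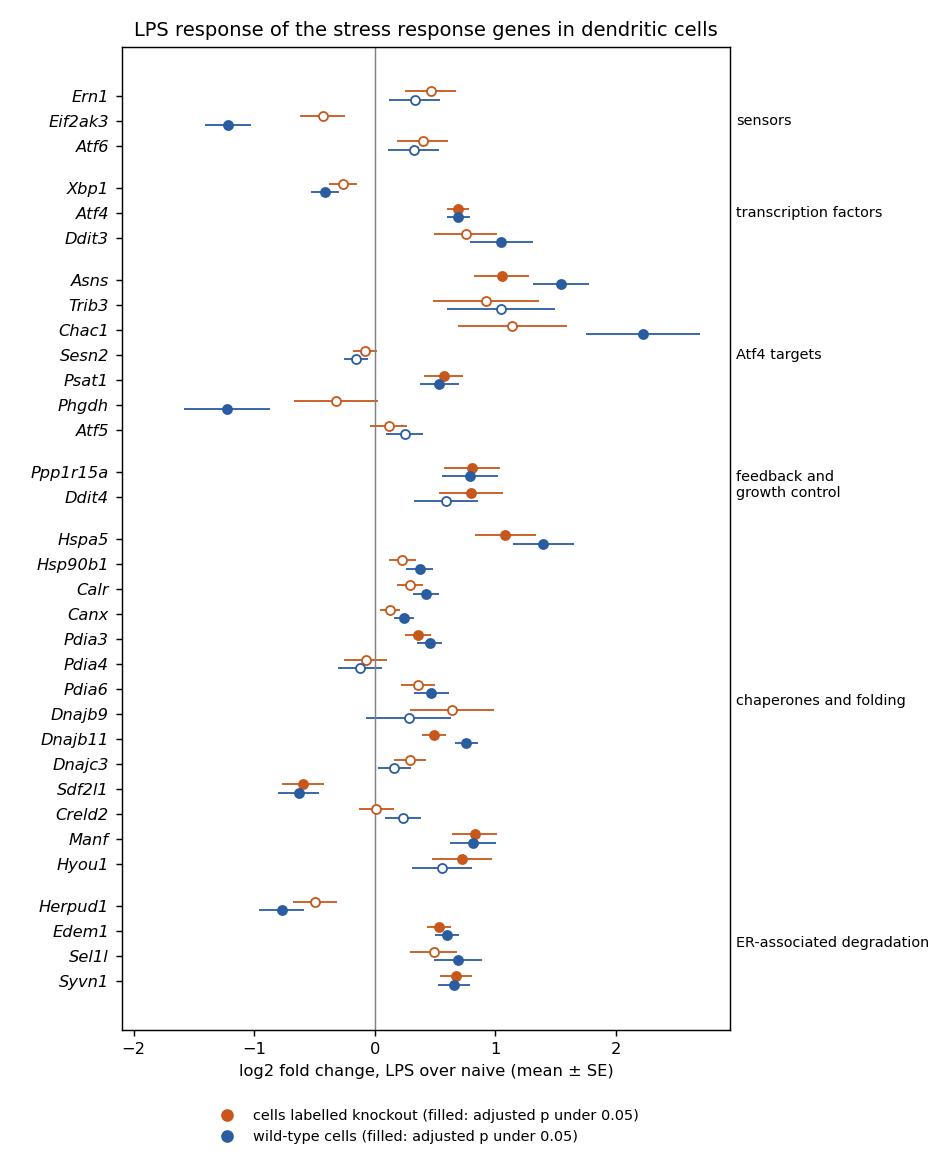
Log2 fold change (x axis, LPS over naive, with SE) of each of the 33 genes by role, in cells labelled knockout (orange, upper point of each pair) and wild-type cells (blue, lower point), with filled points for an adjusted p under 0.05. Most chaperones, Atf4, Asns, Edem1 and Syvn1 lie right of 0 in both, and Sdf2l1 and Herpud1 left of it, while Hsp90b1 and Canx, right of 0 here, lie at -0.040 and -0.17 in wild-type cells when composition factors are left out.

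Among the sensors, Eif2ak3 stood apart. It had 16.3, 29.9 and 20.7 CPM in LPS-treated libraries labelled knockout, against 30.4, 30.8 and 29.0 CPM in naive ones. In wild-type cells it had 15.5, 12.7 and 13.3 CPM after LPS, against 29.8, 32.1 and 34.8 CPM in naive cells. The wild-type groups were far apart, whereas in cells labelled knockout LPS replicate 3 reached the naive level. Eif2ak3 fell by 1.22 in wild-type cells (SE 0.19, adjusted p = 6.24e-04), and its fold change in cells labelled knockout was -0.43 (SE 0.19, adjusted p = 0.11). Ern1 had 33.6, 60.7 and 51.6 CPM after LPS and 34.2, 39.6 and 31.9 CPM in naive cells labelled knockout, and 38.2, 41.2 and 28.1 CPM after LPS and 26.7, 26.1 and 32.6 CPM in naive wild-type cells. The Ern1 groups overlapped in both genotypes, and its fold changes of 0.46 in cells labelled knockout and 0.33 in wild-type cells were not called (adjusted p = 0.127 and 0.258). Atf6 had 15.1, 26.9 and 19.2 CPM after LPS and 12.9, 18.3 and 15.2 CPM in naive cells labelled knockout, and 19.4, 14.0 and 15.4 CPM after LPS and 13.9, 12.4 and 12.6 CPM in naive wild-type cells. Its fold changes of 0.40 in cells labelled knockout and 0.32 in wild-type cells were not called either (adjusted p = 0.189 and 0.274).

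Atf4 gave the most even response of the transcription factors. It had 285, 296 and 283 CPM after LPS and 180.3, 193 and 162 CPM in naive cells labelled knockout, and 243, 251 and 298 CPM after LPS and 156, 163 and 170.3 CPM in naive wild-type cells. In both genotypes every LPS-treated library lay above every naive one. Atf4 rose by 0.69 in cells labelled knockout (SE 0.09, adjusted p = 3.73e-04) and by 0.70 in wild-type cells (SE 0.09, adjusted p = 2.67e-04). Ddit3, the pro-apoptotic factor CHOP, had 38.5, 43.7 and 36.5 CPM after LPS and 19.8, 34.0 and 16.4 CPM in naive cells labelled knockout, and 28.1, 25.3 and 32.9 CPM after LPS and 13.9, 10.2 and 17.4 CPM in naive wild-type cells. It rose by 1.05 in wild-type cells (SE 0.26, adjusted p = 0.0102), and its value of 0.76 in cells labelled knockout narrowly missed the threshold (adjusted p = 0.0509). Xbp1 moved the other way. It had 408, 436 and 458 CPM after LPS and 541, 428 and 595 CPM in naive cells labelled knockout, and 445, 454 and 445 CPM after LPS and 553, 643 and 593 CPM in naive wild-type cells. Xbp1 fell by 0.41 in wild-type cells (SE 0.11, adjusted p = 0.0156), while its value of -0.26 in cells labelled knockout was not called (adjusted p = 0.106).

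The 7 Atf4 targets did not move as a block. In wild-type cells 3 rose, 1 fell and 3 were not called, with a median of 0.54, and in cells labelled knockout 2 rose and 5 were not called, with a median of 0.57. Asns, asparagine synthetase, had 79.4, 103 and 80.5 CPM after LPS and 33.9, 57.7 and 34.6 CPM in naive cells labelled knockout, and 66.0, 62.4 and 78.1 CPM after LPS and 22.1, 18.7 and 29.6 CPM in naive wild-type cells. No LPS-treated library overlapped a naive one of its genotype. Asns rose by 1.05 in cells labelled knockout (SE 0.23, adjusted p = 0.00567) and by 1.55 in wild-type cells (SE 0.23, adjusted p = 5.08e-04). Chac1, which breaks down glutathione, was near the low end of expression, with 3.63, 3.53 and 1.92 CPM after LPS and 0.985, 2.37 and 0.720 CPM in naive cells labelled knockout, and 1.71, 2.53 and 3.03 CPM after LPS and 0.506, 0.376 and 0.660 CPM in naive wild-type cells. It had the largest fold change of the 33 members in wild-type cells, 2.23 (SE 0.48, adjusted p = 0.00418), and 1.14 in cells labelled knockout, not called (adjusted p = 0.0828). The serine synthesis enzymes Psat1 and Phgdh parted. Psat1 had 40.9, 59.4 and 43.4 CPM after LPS and 36.2, 27.6 and 32.9 CPM in naive cells labelled knockout, and 43.2, 42.5 and 44.2 CPM after LPS and 33.6, 30.7 and 25.2 CPM in naive wild-type cells, with rises of 0.57 and 0.54 (adjusted p = 0.0203 and 0.0235). Phgdh had 2.03, 1.32 and 1.34 CPM after LPS and 2.37, 1.07 and 2.43 CPM in naive cells labelled knockout, and 1.38, 1.08 and 2.09 CPM after LPS and 3.82, 3.52 and 3.27 CPM in naive wild-type cells. Phgdh fell by 1.23 in wild-type cells (SE 0.36, adjusted p = 0.0208) and was not called in cells labelled knockout (-0.32, adjusted p = 0.545). A pseudogene is annotated for Phgdh and also for the chaperone Calr. The handling of reads that fit both a gene and its pseudogene was not given. Trib3, a pseudokinase induced by Ddit3 and Atf4, had 16.1, 26.4 and 16.6 CPM after LPS and 9.20, 17.8 and 4.07 CPM in naive cells labelled knockout, and 12.7, 10.6 and 14.9 CPM after LPS and 5.76, 4.34 and 8.38 CPM in naive wild-type cells. Its fold changes of 0.92 and 1.05 were not called (adjusted p = 0.145 and 0.0946), and neither were those of Sesn2, an inhibitor of mTORC1, and the transcription factor Atf5, which lay between -0.16 and 0.25.

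Of the 2 genes of feedback and growth control, 2 rose in cells labelled knockout and 1 in wild-type cells. Ppp1r15a (GADD34), which recruits the phosphatase that reverses eIF2alpha phosphorylation, had 213, 284 and 225 CPM after LPS and 110.1, 204 and 98.4 CPM in naive cells labelled knockout, and 263, 226 and 232 CPM after LPS and 131, 150.3 and 136 CPM in naive wild-type cells. The groups did not overlap in either genotype, and Ppp1r15a rose by 0.81 in cells labelled knockout (SE 0.23, adjusted p = 0.0244) and by 0.79 in wild-type cells (SE 0.23, adjusted p = 0.023). Ddit4 (REDD1), a brake on mTORC1, was low, with 3.53, 6.09 and 7.84 CPM after LPS and 2.99, 3.90 and 3.15 CPM in naive cells labelled knockout, and 5.89, 5.67 and 7.23 CPM after LPS and 4.61, 4.34 and 3.48 CPM in naive wild-type cells. It rose by 0.80 in cells labelled knockout (SE 0.27, adjusted p = 0.0441), and its value of 0.60 in wild-type cells was not called (adjusted p = 0.11). The groups labelled knockout overlapped, with 3.53 CPM in 1 LPS-treated and 3.90 CPM in 1 naive library. The Ddit4 call was lost without composition factors, with no filter on low counts and with the replicate block. It was also lost with only the libraries compared and in most fits with 1 library left out.

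Of the 14 chaperones and folding factors, 5 rose and 1 fell in cells labelled knockout, and 8 rose and 1 fell in wild-type cells. The largest of these rises was that of Hspa5 (BiP), the main ER chaperone of the Hsp70 family. Hspa5 had 1120.0, 1838 and 1140.2 CPM after LPS and 511, 937 and 483 CPM in naive cells labelled knockout, and 1066, 1047 and 1258 CPM after LPS and 424, 414 and 439 CPM in naive wild-type cells. All LPS-treated libraries lay above all naive ones, by the least margin against naive replicate 3 labelled knockout. Hspa5 rose by 1.09 in cells labelled knockout (SE 0.25, adjusted p = 0.00869) and by 1.40 in wild-type cells (SE 0.26, adjusted p = 0.00169), which is 2.64-fold. Its co-chaperone Dnajb11 (ERdj3) had 140.5, 160.2 and 144 CPM after LPS and 109.5, 106 and 99.9 CPM in naive cells labelled knockout, and 146, 137 and 173 CPM after LPS and 88.9, 87.3 and 92.5 CPM in naive wild-type cells. Dnajb11 rose by 0.49 in cells labelled knockout (adjusted p = 0.0032) and by 0.76 in wild-type cells (SE 0.10, adjusted p = 1.76e-04), the smallest adjusted p of the 33 members. Manf, a secreted ER stress protein, had 271, 426 and 264 CPM after LPS and 192, 211 and 138 CPM in naive cells labelled knockout, and 288, 277 and 293 CPM after LPS and 159, 172 and 156 CPM in naive wild-type cells. It rose by 0.83 and 0.82 (adjusted p = 0.00753 and 0.00686). Pdia3, a disulphide isomerase that works with the lectin chaperones, had 413, 552 and 429.7 CPM after LPS and 369, 365 and 355 CPM in naive cells labelled knockout, and 448, 438 and 430.2 CPM after LPS and 347, 296 and 317 CPM in naive wild-type cells. Its rises were smaller, 0.36 in cells labelled knockout and 0.46 in wild-type cells (adjusted p = 0.0281 and 0.00731).

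Hyou1, a nucleotide exchange factor for Hspa5, was called in cells labelled knockout (0.73, adjusted p = 0.0479) and not in wild-type cells (0.56, adjusted p = 0.106). A further 4 members were called in wild-type cells alone: Calr, the lectin chaperone calreticulin, at 0.42, the isomerase Pdia6 at 0.47, and Hsp90b1 (GRP94) and the lectin chaperone Canx at 0.37 and 0.24, which lie at -0.040 and -0.17 without composition factors. Sdf2l1, a partner of the Hspa5 chaperone cycle, ran against the rest. It had 11.3, 13.9 and 9.22 CPM after LPS and 19.2, 16.1 and 16.7 CPM in naive cells labelled knockout, and 8.09, 9.97 and 11.3 CPM after LPS and 15.2, 16.4 and 13.9 CPM in naive wild-type cells. Every LPS-treated library was below every naive one, and Sdf2l1 fell by 0.59 in cells labelled knockout (SE 0.17, adjusted p = 0.0246) and by 0.63 in wild-type cells (SE 0.17, adjusted p = 0.0159). The uncalled chaperones were Pdia4, Dnajb9, Dnajc3 and Creld2, with values of -0.08 to 0.64 in cells labelled knockout and -0.12 to 0.28 in wild-type cells.

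Of the 4 genes of ER-associated degradation, 2 rose in cells labelled knockout, and 3 rose and 1 fell in wild-type cells. Without composition factors none was called higher in either genotype, and Herpud1 was called lower in both. Edem1, which marks misfolded glycoproteins for removal, had 337, 427 and 376 CPM after LPS and 250.5, 284 and 253 CPM in naive cells labelled knockout, and 430.0, 385 and 372 CPM after LPS and 267, 251 and 264 CPM in naive wild-type cells. Syvn1, the ubiquitin ligase HRD1, had 151, 172 and 129 CPM after LPS and 84.2, 109 and 89.8 CPM in naive cells labelled knockout, and 169, 142 and 148 CPM after LPS and 95.6, 89.5 and 106 CPM in naive wild-type cells. Neither gene's groups overlapped. Edem1 rose by 0.53 in cells labelled knockout and 0.60 in wild-type cells (adjusted p = 0.0024 and 8.67e-04), and Syvn1 by 0.67 and 0.66 (adjusted p = 0.00334 and 0.00292). Sel1l, the partner of Syvn1, had 288, 381 and 306 CPM after LPS and 182, 325 and 187 CPM in naive cells labelled knockout, and 313, 298 and 279 CPM after LPS and 174, 191 and 186 CPM in naive wild-type cells. It rose by 0.69 in wild-type cells (SE 0.20, adjusted p = 0.02) and was not called in cells labelled knockout (0.49, adjusted p = 0.0893), where naive replicate 3 was above both other naive libraries and 2 of the LPS-treated ones. Herpud1, a membrane component of the same complex, had 93.3, 137 and 78.2 CPM after LPS and 151, 147 and 136 CPM in naive cells labelled knockout, and 60.7, 72.8 and 82.8 CPM after LPS and 109, 127 and 133 CPM in naive wild-type cells. Herpud1 fell by 0.77 in wild-type cells (SE 0.19, adjusted p = 0.00847) and was not called in cells labelled knockout (-0.49, adjusted p = 0.0692).

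**Figure D2:**
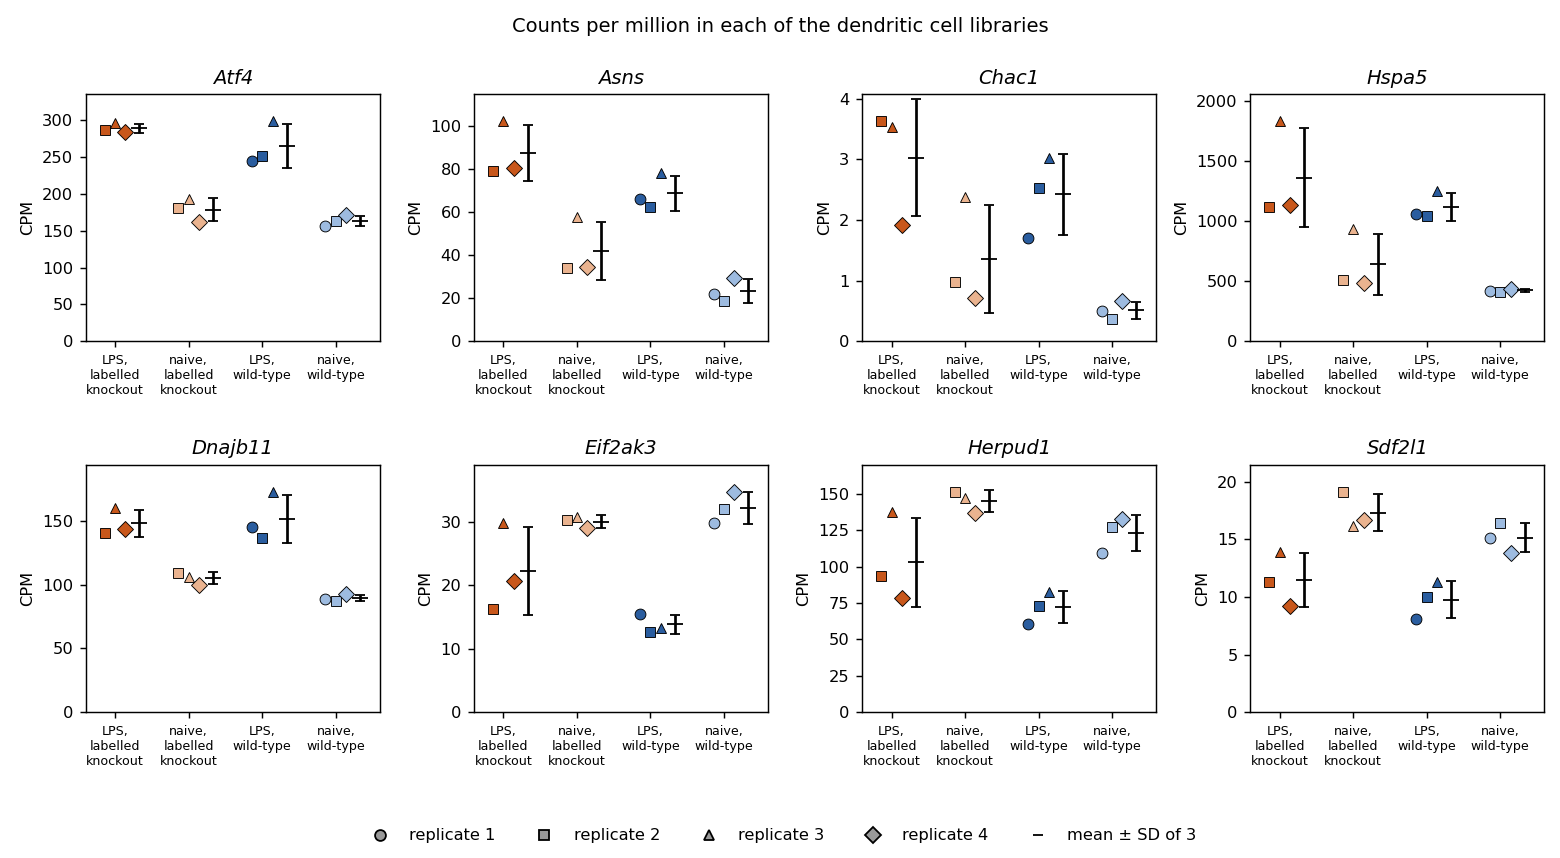
CPM (y axis, from 0) of 8 genes in each of the 12 dendritic cell libraries, by group, with the marker shape giving the replicate number and the bar the mean and SD of 3 libraries. Atf4, Asns and Hspa5 are higher and Sdf2l1 is lower in every LPS-treated library than in the naive libraries of the same genotype, and replicate 3 labelled knockout is the highest of its LPS-treated group for Hspa5, Eif2ak3 and Herpud1.

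The 2 genotypes gave the same direction for all 33 members. Of these, 10 were called higher in both and 1 lower in both (Sdf2l1), 2 were called in cells labelled knockout only (Ddit4 and Hyou1), and 11 in wild-type cells only. The calls of Ddit4 and Hyou1 were lost in most fits with 1 library left out. The difference between the responses was tested itself, as the interaction of genotype and LPS, and no member and no gene was called (0% of 16965 genes, and 4% at an unadjusted p under 0.05). Eif2ak3 was the single member with an unadjusted p under 0.05 there, with a response in cells labelled knockout that lay 0.79 above that in wild-type cells (SE 0.26, unadjusted p = 0.0123, adjusted p = 1). A call in one genotype alone is therefore no measured difference between them. Without both replicates 3 labelled knockout, chosen after the data were seen, the calls were 13 higher and 5 lower in cells labelled knockout and 19 higher and 5 lower in wild-type cells. The coefficient of variation that edgeR estimated between libraries was 0.284 in that fit, against 0.311 with all libraries. The share of all genes called in that fit is not given here, so these counts are not a result about the members.

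The ER stress response element and the calls can be set side by side. In wild-type cells 6 of the 8 members with the element rose and none fell, and of the 10 other tested genes with it none rose and 1 fell. In cells labelled knockout 2 of these 8 members rose, Hspa5 and Syvn1, and again none of the 10 other genes did. Among all genes 18.1% rose and 15.8% fell in wild-type cells, and 15.3% rose and 13.4% fell in cells labelled knockout. Without composition factors Hspa5 alone of these 8 members was still called higher, in both genotypes. The members with element II split, with Dnajb11 higher and Herpud1 lower in wild-type cells. Those with the composite element split too, with Asns and Chac1 higher, Herpud1 lower and Trib3 not called.

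Further genes of the same pathways were listed separately. Of 31 further Atf4 targets 30 were tested, and 12 rose and 1 fell in cells labelled knockout, with a median of 0.44, while 11 rose and 3 fell in wild-type cells, with a median of 0.04. Among all genes 15.3% rose and 13.4% fell in cells labelled knockout, and 18.1% rose and 15.8% fell in wild-type cells. The smallest p-values belonged to Atf3, a stress-induced repressor, which rose by 2.11 and 2.52, to Aars, an aminoacyl-tRNA synthetase, which rose by 0.84 and 0.95, and to Slc7a11, the cystine transporter, which rose by 1.54 and 1.83, each in cells labelled knockout and in wild-type cells. Of 32 further genes of folding, translocation and degradation 29 were tested, and 5 rose and 2 fell in cells labelled knockout and 7 rose and 1 fell in wild-type cells. The rises on this list were close to the shares of all genes just given. Spcs1, a signal peptidase subunit, rose by 0.46 in cells labelled knockout and 0.68 in wild-type cells. Ero1lb, an ER oxidase, fell by 0.66 in cells labelled knockout and by 1.06 in wild-type cells. Vcp, which pulls proteins out of the ER membrane, rose by 0.53 in cells labelled knockout, and Derl2, a channel component, by 0.98 in wild-type cells. Among 6 genes that act on eIF2alpha, 3 rose and 1 fell in both genotypes. Eif2ak2 (PKR), the kinase that senses double-stranded RNA, rose by 1.82 and 1.78, Ppp1r15b, the constitutive phosphatase partner, by 0.88 and 0.87, and Eif2s1, which encodes eIF2alpha, by 0.49 and 0.67. Markers of cell types moved in the same comparison: 3 of 8 dendritic cell markers were higher in cells labelled knockout and 6 of 8 in wild-type cells, and 1 of 7 macrophage markers was higher and 2 were lower in both. Plasma cell markers in these cells summed to 317 to 498 CPM in naive libraries and 794 to 884 CPM in LPS-treated ones. Tnfrsf17 was at 0 in all 12 libraries, Mzb1 at 0 to 0.212 CPM and Jchain at 0.123 to 2.58 CPM, while Sdc1 had 9.13 to 41.4 CPM. The part of the cell mixture in the LPS response was not tested.

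Between genotypes within 1 treatment, no member was called in dendritic cells, nor was any gene (0% of 16965 genes in both comparisons). At an unadjusted p under 0.05 edgeR gave 8 members in naive cells, against 6.71% of all genes, and 4 after LPS, against 11.3%. In naive cells labelled knockout 27 of 33 members had a positive fold change, against 50.8% of all genes, with a median of 0.19, and so did all 14 chaperones. Libraries labelled knockout lay all above the wild-type ones for 12 members, against 6.59% of all genes, and all below for 1, against 6.48%. The smallest unadjusted p-values in naive cells belonged to Asns (0.84, SE 0.23, adjusted p = 0.617), Hsp90b1 (0.39, SE 0.11, adjusted p = 0.617) and Chac1 (1.41, SE 0.47, adjusted p = 0.667), followed by Ddit3 at 0.76 and Canx at 0.22. Hsp90b1 had 479.9, 508 and 482 CPM in naive cells labelled knockout, against 394, 357 and 369 CPM in naive wild-type cells. Canx had 192, 211 and 197 CPM in naive cells labelled knockout, against 178, 173 and 166 CPM in naive wild-type cells. For both genes the libraries were apart, but neither difference passed the adjustment over all genes.

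After LPS 27 of 33 members were again on the positive side in cells labelled knockout, against 48% of all genes, and 13 of 14 chaperones. Libraries labelled knockout lay all above the wild-type ones for 5 members, against 8.97% of all genes, and all below for 0, against 8.57%. Replicate 3 labelled knockout weighs on these counts. It was the highest of its 3 libraries for 28 of 33 members after LPS, all 14 chaperones included, where the same library was highest for 34.6% of all genes, and for 24 of 33 members in naive cells, against 37.8% of all genes. Without LPS replicate 3 labelled knockout the positive members after LPS were 19 of 33 and the positive chaperones 7 of 14. Without naive replicate 3 labelled knockout the positive chaperones in naive cells were 13 of 14, with a median of 0.18, and the members at an unadjusted p under 0.05 were 3. Macrophage markers summed to 810.6 CPM in LPS replicate 3 labelled knockout, against 1357 and 1909 CPM in the other libraries of its group, and to 723 CPM in the naive replicate 3, against 1434 and 1557 CPM. Their part in the higher levels of replicate 3 was not tested.

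After LPS the smallest unadjusted p-value of a member belonged to Eif2ak3, at 16.3, 29.9 and 20.7 CPM in cells labelled knockout, against 15.5, 12.7 and 13.3 CPM in wild-type cells (0.69, SE 0.19, unadjusted p = 0.00379, adjusted p = 0.242 by edgeR). The libraries did not overlap, though the lowest one labelled knockout was within 1 CPM of the highest wild-type one. DESeq2 called this gene (0.68, adjusted p = 0.043). Dnajb9 (ERdj4), a co-chaperone that represses Ern1, had 12.3, 33.3 and 14.5 CPM in cells labelled knockout after LPS, against 10.5, 8.96 and 9.89 CPM in wild-type ones (1.03, SE 0.35, adjusted p = 0.327). Replicate 3 alone held more than the other 2 libraries labelled knockout together. Herpud1 (0.51, adjusted p = 0.346) and Hsp90b1 (0.25, adjusted p = 0.421) were the others at an unadjusted p under 0.05. Dnajc3, a co-chaperone and inhibitor of Eif2ak3, had 42.4, 61.6 and 44.7 CPM in cells labelled knockout after LPS, against 42.9, 41.3 and 39.9 CPM in wild-type ones, which overlap. Among the separately listed genes none was called in either genotype comparison. In naive cells the smallest p-values of the further Atf4 targets belonged to Slc7a11 (0.83, adjusted p = 0.582), Eprs (0.44) and Atf3 (0.66), and of the folding list to Creb3l1 (1.0), Wfs1 (0.58) and Spcs3 (0.27). After LPS they belonged to Cebpg (0.45) and Slc7a11 (0.54), and to Ero1lb (0.55), Derl2 (-0.27) and Sec61b (-0.22). The eIF2alpha list gave Eif2ak2 (0.21), Ppp1r15b (0.11) and Eif2ak4 (0.08) in naive cells and Eif2b5 (-0.21), Eif2ak2 (0.26) and Eif2s1 (-0.19) after LPS. Vldlr, also among the first of that list, had 1, 0 and 0 counts in LPS-treated cells labelled knockout, against 57, 29 and 2 counts in wild-type ones. In the interaction the folding list gave Creb3l1 (-1.64, SE 0.49, adjusted p = 1), Derl2 (-0.48) and Ero1lb (0.40), the eIF2alpha list Eif2b5 (-0.17), Eif2s1 (-0.17) and Eif2ak2 (0.04), and the further Atf4 targets Vldlr, Aldh1l2 (2.44) and Cth (1.14), all with an adjusted p of 1.

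**Figure D3:**
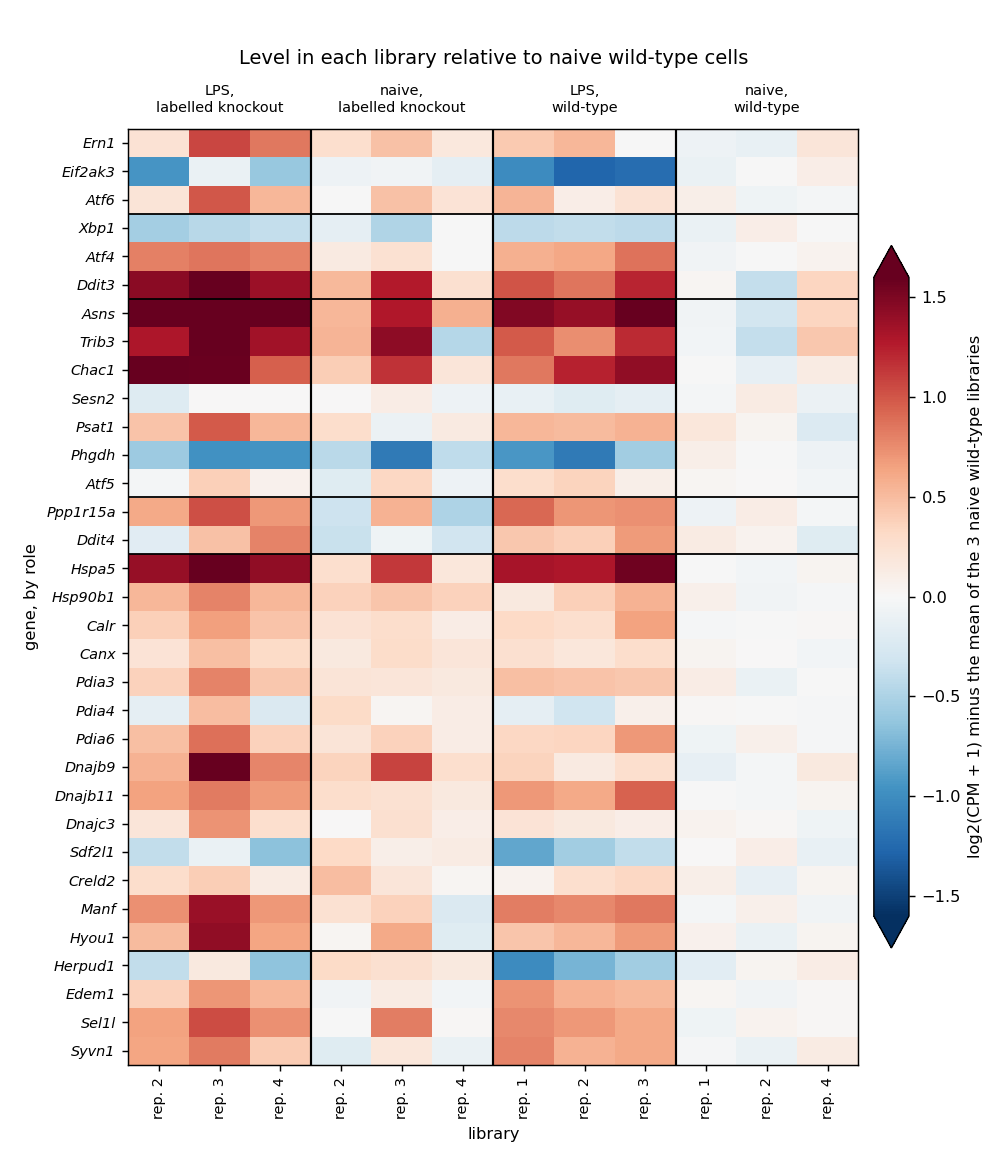
Level of each of the 33 genes (rows, by role) in each of the 12 dendritic cell libraries (columns, by group), as log2(CPM + 1) minus the mean of the 3 naive wild-type libraries, red above and blue below, with the colour scale ending at its arrows. Replicate 3 labelled knockout is the highest of its LPS-treated group in 28 of 33 rows, and Eif2ak3, Phgdh, Sdf2l1 and Herpud1 are blue in all 3 LPS-treated wild-type libraries.

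Levels per kilobase of exon put the members in order within a group. In naive cells labelled knockout Xbp1 led with 160.4 CPM per kilobase, ahead of Hspa5 with 152, and in naive wild-type cells Xbp1 led with 184, followed by Calr with 118, Pdia3 with 102, Hspa5 with 101 and Hsp90b1 with 92.5. After LPS Hspa5 led with 323 CPM per kilobase in cells labelled knockout and 266 in wild-type cells, ahead of Calr with 167 and 158. Neighbours in this order such as Pdia3 and Hspa5 in naive wild-type cells are closer than the spread of their libraries. At the other end stood Chac1, Atf6 and Phgdh, at 0.314 to 1.42 CPM per kilobase in naive wild-type cells. In spleens Hsp90b1 led with 232 CPM per kilobase in knockout and 268 in wild-type libraries, followed by Hspa5 with 161 and 157, and Calr with 133 and 120.0, and Chac1 was last with 0.218 and 0.159. Exon lengths came from a mouse annotation of build GRCm38, whereas the labels name mm9, and Gapdh stood at 2.58 to 7.80 CPM in dendritic cells and 48.9 to 152 CPM in spleens, so levels were not compared between tissues.

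In spleens no member was called between genotypes, where 0.177% of 20371 genes were (0.0982% higher and 0.0785% lower). At an unadjusted p under 0.05 edgeR gave 11 of 33 members, against 17.4% of all genes. The genotypes were apart in all their spleens for 0 members, against 0.0736% of all genes (0.0491% higher and 0.0245% lower in knockout spleens). The signs were counted for the Atf4 targets and the chaperones, and the difference between these lists was not tested. All 7 Atf4 targets had positive fold changes, with a median of 0.29 (6 of 7 and 0.15 without composition factors), and 8 of 14 chaperones did, with a median of 0.03, against 51.9% and 0.01 for all genes. These counts describe the lists, since no member passed the test.

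Trib3 had the largest fold change, 1.10 (SE 0.40, unadjusted p = 0.0126, adjusted p = 0.181), and it was 0.41 without knockout spleen 4. It ranged over 0.750, 1.42 and 7.84 CPM (lowest, median and highest) in 9 knockout spleens, against 0.303, 0.897 and 1.62 CPM in 10 wild-type spleens. Knockout spleen 4 alone held the 7.84 CPM, and the next highest knockout spleen had 1.58 CPM. Atf5 ranged over 9.83, 13.6 and 19.3 CPM in knockout spleens, against 6.79, 11.3 and 14.5 CPM in wild-type ones (0.49, SE 0.16, unadjusted p = 0.00663, adjusted p = 0.145), and the groups overlapped. Its annotated exons share 82 bases with the opposite-strand gene Il4i1, and whether counting used the strand was not given. Sesn2 ranged over 3.66, 4.64 and 6.28 CPM in knockout spleens, against 3.05, 3.85 and 5.26 CPM in wild-type ones (0.27, adjusted p = 0.253). Asns ranged over 17.7, 39.0 and 94.4 CPM in knockout spleens, against 17.0, 33.3 and 57.6 CPM in wild-type ones (0.29, SE 0.29, adjusted p = 0.617), with the highest again in knockout spleen 4. Phgdh ranged over 6.81, 14.2 and 24.0 CPM in knockout spleens, against 8.67, 11.9 and 21.2 CPM in wild-type ones (0.27, adjusted p = 0.482), and Chac1 and Psat1 had fold changes of 0.45 and 0.11. Spleen 4 was the highest knockout spleen for 5 of 7 Atf4 targets, against 13.1% of all genes, and without it the targets' median was 0.21. It also had the largest sum of 8 erythroid markers, 286967 CPM, against 42120 to 135195 CPM in the other knockout spleens and 29260 to 114973 CPM in wild-type ones. Its 10 leading genes took 26.1% of its counts. The part of these in the Atf4 target levels was not tested.

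Of the sensors, Atf6 ranged over 12.9, 15.3 and 19.1 CPM in knockout spleens, against 15.0, 18.5 and 24.6 CPM in wild-type ones (-0.29, unadjusted p = 0.00854, adjusted p = 0.155). Ern1 ranged over 5.49, 13.2 and 22.1 CPM in knockout spleens, against 13.1, 16.5 and 24.5 CPM in wild-type ones (-0.36, adjusted p = 0.283). Eif2ak3, the sensor that fell after LPS in wild-type cells, had a fold change of -0.05 here (SE 0.11). Atf4 ranged over 155, 223 and 319 CPM in knockout spleens, against 152, 182 and 278 CPM in wild-type ones (0.21, SE 0.14, adjusted p = 0.461). Ddit3 ranged over 15.9, 19.04 and 31.3 CPM in knockout spleens, against 12.8, 15.2 and 21.4 CPM in wild-type ones (0.33, adjusted p = 0.203), and Xbp1 over 180.5, 209 and 256 CPM, against 189, 243 and 339 CPM in wild-type spleens (-0.16, adjusted p = 0.418). All of these groups overlapped.

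Evenness across spleens differed between chaperones. The SD of log2 CPM was 0.08 in knockout and 0.19 in wild-type spleens for Hspa5, 0.12 in both for Pdia3, and 0.33 in knockout and 0.30 in wild-type spleens for Dnajb9. Hspa5 ranged over 632, 665 and 736 CPM in knockout spleens, against 538, 649.6 and 831 CPM in wild-type ones, and its fold change was 0.03 (SE 0.07). Calr ranged over 351, 390.4 and 417 CPM in knockout spleens, against 291, 344 and 410.4 CPM in wild-type ones (0.15, SE 0.07, adjusted p = 0.255). Dnajc3 ranged over 32.7, 38.7 and 46.3 CPM, against 36.5, 42.6 and 53.5 CPM in wild-type spleens (-0.18, adjusted p = 0.262), and Pdia4 over 81.8, 108 and 130.1 CPM, against 102, 124 and 148 CPM in wild-type spleens (-0.18, adjusted p = 0.272). Hsp90b1 ranged over 823, 889.7 and 1197 CPM in knockout spleens, against 828, 1010.1 and 1459 CPM in wild-type ones (-0.21, adjusted p = 0.341). The remaining chaperones lay between -0.20 and 0.18. Syvn1 ranged over 299, 399.9 and 519 CPM in knockout spleens, against 292, 353 and 403 CPM in wild-type ones (0.23, SE 0.10, adjusted p = 0.237), and it was called without knockout spleens 4, 6 and 9 (0.36, adjusted p = 0.0434), which had been set apart in an earlier analysis of these data. Edem1 ranged over 111, 128 and 137 CPM in knockout spleens, against 119, 132 and 219.6 CPM in wild-type ones (-0.22, adjusted p = 0.277), and Sel1l over 43.1, 67.8 and 89.9 CPM, against 66.1, 80.2 and 137 CPM in wild-type spleens (-0.30, adjusted p = 0.289). Herpud1 and Ddit4 had fold changes of 0.07 and -0.06. Of the feedback genes, Ppp1r15a ranged over 87.9, 192 and 504 CPM in knockout spleens, against 89.7, 138 and 358 CPM in wild-type ones, so that single spleens spanned more than the genotypes (0.43, SE 0.30, adjusted p = 0.469). None of the separately listed pathway genes was called, with the smallest adjusted p at 0.0731 for Vldlr (-0.75), 0.0756 for Sars (0.29) and 0.0943 for Ssr1 (0.20), followed by Atf3 (0.56), P4hb (0.18) and Pdia2 (1.63), and by Eif2b5 (0.20), Ppp1r15b (0.12) and Eif2ak1 (0.25) on the eIF2alpha list. Pdia2, an isomerase known from pancreas, stood beside exocrine pancreas markers that summed to 21.2 to 8520 CPM in knockout spleens and 19.5 to 3003 CPM in wild-type ones.

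**Figure D4:**
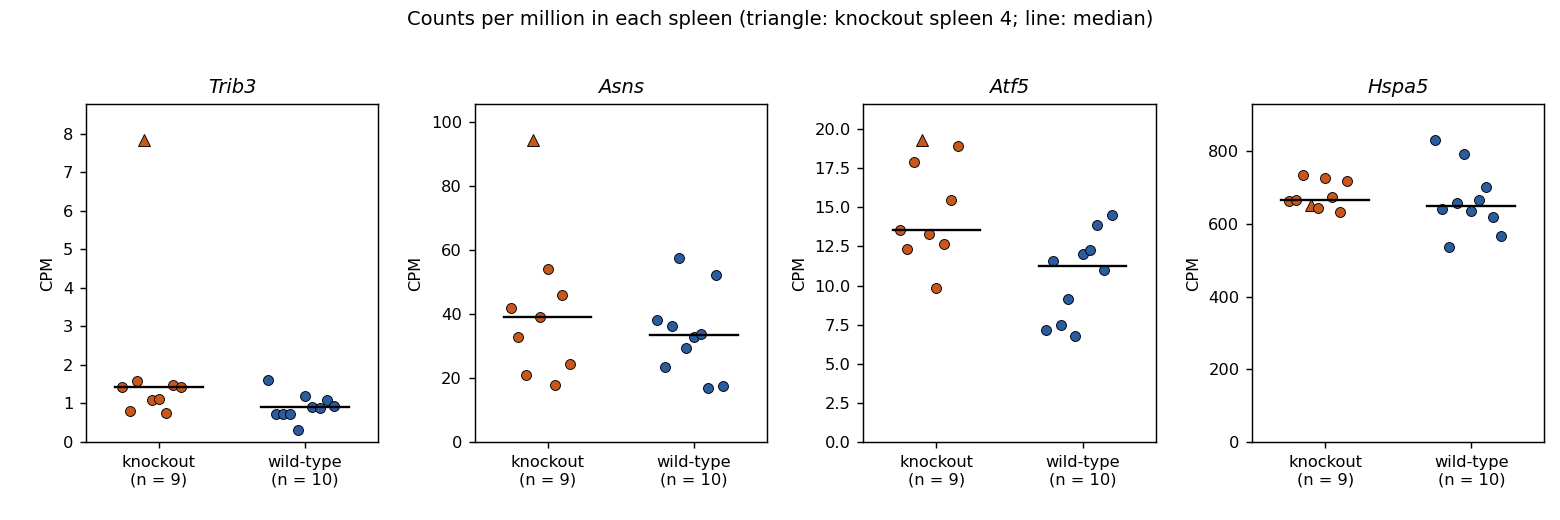
CPM (y axis, from 0) of Trib3, Asns, Atf5 and Hspa5 in each spleen, 9 knockout at the left and 10 wild-type at the right of each panel, with the line at the median and a triangle for knockout spleen 4. That spleen is the highest for Trib3 (7.84 CPM), Asns (94.4 CPM) and Atf5 (19.3 CPM) and lies within the other spleens for Hspa5.

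Plasma cells have a large ER, and the sum of 13 plasma cell markers varied from 2983 to 4742 CPM in knockout spleens and from 3181 to 7564 CPM in wild-type ones. Levels of each member were therefore set against this sum within each genotype, as log2 values. The sum had a median of 4133 CPM in knockout and 4777 CPM in wild-type spleens. Without the immunoglobulin genes and Derl3 the medians were 971 and 1194 CPM, so these genes made up most of the sum. Derl3 was also on the list of further folding genes, and the part of other cell types in the sum was not tested. Jchain alone had medians of 662 and 888 CPM. Values below use all 13 markers unless said otherwise. In 9 knockout spleens 10 of 14 chaperones had a positive Pearson r, with a median of 0.33, and in 10 wild-type spleens all 14 did, with a median of 0.74. With markers other than the immunoglobulin genes and Derl3, 11 of 14 did in knockout spleens, with a median of 0.46, and 13 of 14 in wild-type spleens, with a median of 0.58 and Canx at -0.25. With the plain library size 13 of 14 did in knockout spleens. At an unadjusted permutation p under 0.05 stood 8 of 33 members in knockout spleens, against 17.4% of all genes, and 13 of 33 in wild-type spleens, against 5.15%. With the shorter marker list these were 5 and 9 members. With all 13 markers the 8 in knockout spleens had both signs. Canx (r = -0.72, exact permutation p = 0.0178), Ern1 (r = -0.72, exact permutation p = 0.0105) and Asns were negative. Phgdh, Ddit4, Creld2, Manf and Edem1 were positive. The 13 in wild-type spleens were all positive. Of the 3 sensors, 0 had a positive r in knockout spleens and 3 did in wild-type spleens. No member passed the adjustment over the 20371 genes in either genotype, and no other gene did. Creld2, which carries the ER stress response element, had in wild-type spleens r = 0.93 (permutation p = 1.9e-04, adjusted p = 0.204), Spearman's rho = 0.93 (permutation p = 3.3e-04) and r = 0.92 without the 2 spleens farthest from the median. In knockout spleens Creld2 had r = 0.69 (exact permutation p = 0.0458, adjusted p = 0.281), rho = 0.68 (exact permutation p = 0.0503) and r = 0.27 without the 2 farthest. That last value was 0.51 with the plain library size and 0.57 with the shorter marker list. Edem1 had r = 0.79 in knockout spleens (exact permutation p = 0.0135, adjusted p = 0.241), rho = 0.77 (exact permutation p = 0.0214) and r = 0.93 without the 2 farthest. In wild-type spleens Edem1 had r = 0.90 (permutation p = 1.4e-04, adjusted p = 0.191), rho = 0.99 (permutation p = 2e-05) and r = 0.95 without the 2 farthest. Hsp90b1 had r = 0.31 in knockout spleens (exact permutation p = 0.421, rho = 0.25, exact permutation p = 0.521, r = 0.06 without the 2 farthest). In wild-type spleens it had r = 0.91 (permutation p = 2.3e-04, adjusted p = 0.204, rho = 0.93, permutation p = 3.8e-04) and r = 0.86 without the 2 farthest. Xbp1 had r = 0.41 in knockout spleens (exact permutation p = 0.258, rho = 0.42, exact permutation p = 0.27, r = 0.64 without the 2 farthest). In wild-type spleens it had r = 0.88 (permutation p = 0.00115, adjusted p = 0.422, rho = 0.95, permutation p = 1e-04) and r = 0.84 without the 2 farthest.

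The signs of r were mixed among the Atf4 targets, and their difference from the chaperones was not tested. Their median r was -0.25 in knockout spleens, where 3 of 7 were positive, and -0.08 in wild-type spleens, where 2 of 7 were, against 0.14 and 5 of 7 in wild-type spleens with the shorter marker list. Phgdh had r = 0.75 in knockout spleens (exact permutation p = 0.0122, adjusted p = 0.241, rho = 0.78, exact permutation p = 0.0172, r = 0.44 without the 2 farthest) and r = -0.08 in wild-type spleens (permutation p = 0.832, rho = -0.09, permutation p = 0.811, r = 0.11 without the 2 farthest). Psat1 had r = 0.24 in knockout spleens (exact permutation p = 0.52, rho = 0.08, exact permutation p = 0.843, r = -0.10 without the 2 farthest) and r = 0.82 in wild-type spleens (permutation p = 0.00507, adjusted p = 0.662, rho = 0.67, permutation p = 0.039, r = 0.72 without the 2 farthest). Asns had r = -0.69 in knockout spleens (exact permutation p = 0.0419, adjusted p = 0.275, rho = -0.68, exact permutation p = 0.0503, r = -0.82 without the 2 farthest) and r = -0.46 in wild-type spleens (permutation p = 0.179, rho = -0.45, permutation p = 0.193, r = -0.49 without the 2 farthest). All tests are two-sided, 33 members were tested in each genotype, and the difference between genotypes was not tested. The wild-type spleens covered the wider range of marker sums. Wild-type spleen 1, which had the highest sum, was the highest wild-type spleen for 10 of 14 chaperones, against 15.2% of all genes.

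**Figure D5:**
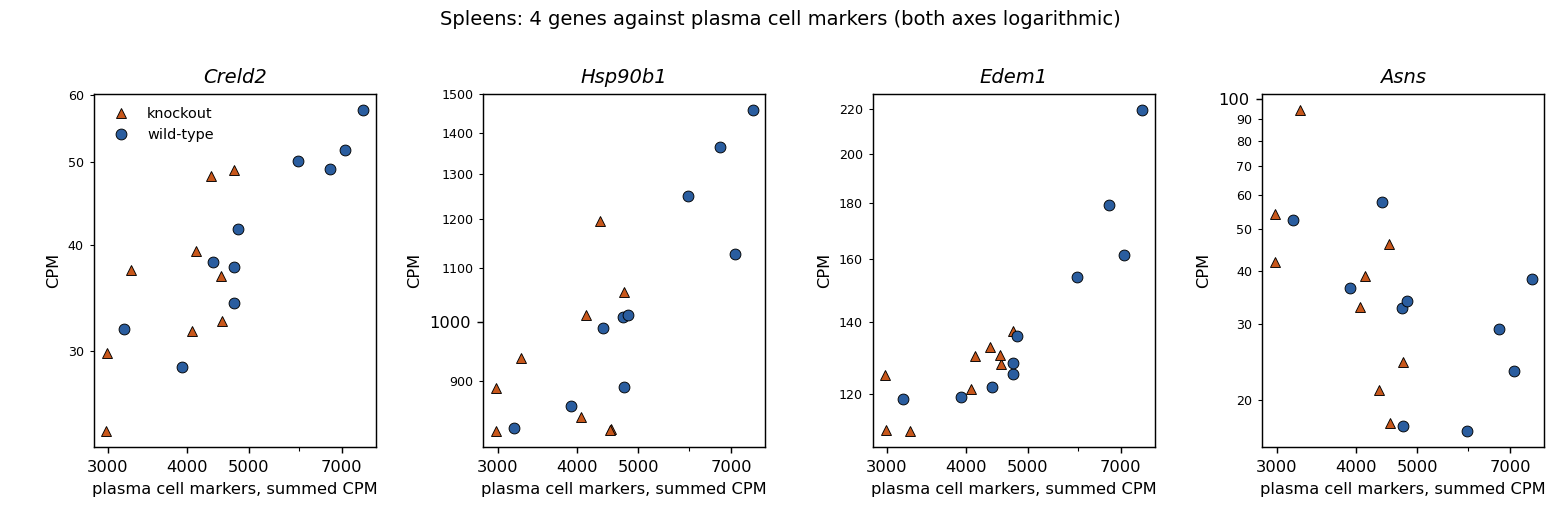
CPM of 4 genes (y axis, logarithmic) against the summed CPM of 13 plasma cell markers (x axis, logarithmic) in 9 knockout (orange triangles) and 10 wild-type spleens (blue circles). In wild-type spleens Creld2, Hsp90b1 and Edem1 are higher where the markers are higher (r = 0.93, 0.91 and 0.90, none past the adjustment over all genes), and Asns is not (r = -0.46).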

How the data were processed

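Gene counts of 31 libraries were analysed as deposited by the authors, as whole-number counts per Ensembl gene ID. Per the labels' protocols, total RNA was extracted and sequenced as standard Illumina libraries, and the submitters' processing notes name TopHat 1.3.3, Bowtie 0.0.9v, SAMtools, bedtools, DESeq and mm9 without saying what each was used for. The annotation, the use of strand and the handling of reads with several matches were not given in the sources used here. Of the counts up to 200 in a library, 57.8% to 62.1% were even, and what this means for precision was not tested.

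Genes missing from a file were set to 0. Dendritic cells (12 libraries, 16965 genes after edgeR's filterByExpr) and spleens (19 libraries, 20371 genes) were fitted apart with edgeR 4.0.16 (TMM factors, quasi-likelihood F-test, robust) in R 4.3.3, and p-values were adjusted over all genes of a fit. DESeq2 1.42.0, other scalings, no filter, a replicate block and left-out libraries were alternatives. Correlations used permutations, exact for 9 spleens and 100000 resamples for 10, and were adjusted over all genes, not over the members as first planned. The tests were tried on simulated data first. Same-numbered dendritic cell libraries did not deviate together (r of -0.09 to 0.07 over 13 pairs). Same-numbered spleens had r of -0.08 to 0.29 over 9 pairs, most of them positive, and pairs with different numbers reached 0.42.

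The members and lists were chosen with earlier results of these data known. Every called member is named, with library values for up to 4 members per role with the smallest p, and the 3 genes with the smallest p of each further list. A log2 fold change is the fitted value, and the heat map uses log2(CPM + 1).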

Additional observations from a re-analysis of the deposited data

Results flagged for a closer look

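In 66 sets of spleen values, 1 for each member and genotype, 8 had a library that stood apart from the others by Dixon's test on CPM. Its limits are exceeded in about 1 in 20 sets of independent, normally distributed values. The 66 sets share the same 19 spleens, CPM need not be normally distributed, and no rate over all genes is given. All 8 libraries were the highest of their set, and they are listed as a description. Knockout spleen 4 held 3 of them: Trib3 at 7.84 CPM, Asns at 94.4 CPM and Ppp1r15a at 503.6 CPM, where the other knockout spleens had 0.750 to 1.58, 17.7 to 54.2 and 87.9 to 264 CPM. Knockout spleen 6 had Canx at 203.1 CPM, above 121 to 161 CPM in the others. Among wild-type spleens, spleen 1 had Ern1 at 24.5 CPM, above 13.1 to 17.9 CPM in the others, and Xbp1 at 339.2 CPM, above 189 to 266 CPM. Wild-type spleen 4 had Ppp1r15a at 358.4 CPM, above 89.7 to 173 CPM, and wild-type spleen 8 had Phgdh at 21.2 CPM, above 8.67 to 14.0 CPM. The part of the erythroid and exocrine pancreas markers, which also varied widely between spleens, was not tested.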

How the results depend on the processing

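In wild-type dendritic cells the count of members higher after LPS, 17, was 5 without composition factors and 12 to 20 under the other alternatives that keep every wild-type library, and the count of lower members, 5, was 7 without composition factors and 3 with the replicate block. Leaving out 1 library gave 8 to 18 higher and 3 to 5 lower, and without naive wild-type replicate 1, 2 or 4 the higher members were 11, 8 and 10. In cells labelled knockout the count of higher members, 12, was 3 without composition factors and 5 when only the libraries compared were fitted, and 7 to 14 with 1 library left out, with 7 both without naive replicate 4 and without LPS replicate 3. The single lower member became 5 without composition factors, 2 with DESeq2, 2 with the replicate block, 0 with only the libraries compared, 3 without the libraries labelled knockout that hold Gpr34 reads, 5 without both replicates 3 and 0 to 3 with 1 library left out. Without composition factors Hsp90b1 and Canx changed sign in wild-type cells, to -0.040 and -0.17. The cause was not tested beyond the shift of the median of all genes. Of the 22 calls in wild-type cells DESeq2 kept 22 and the replicate block 15. The genotype comparisons in naive cells and the interaction gave 0 members under every alternative. After LPS the count of 0 higher became 1 with DESeq2, Eif2ak3. In spleens it became 1 without knockout spleens 4, 6 and 9 and 0 to 1 with 1 spleen left out, where Atf5 was called without knockout spleen 6 (0.54, adjusted p = 0.0495). Correlation counts after adjustment stayed at 0 members, while without immunoglobulin genes and Derl3 among the markers the members' median r in wild-type spleens was 0.30 in place of 0.53, with Hsp90b1 at 0.73, Edem1 at 0.67 and Calr at 0.43. With the plain library size 18 genes, none a member, passed in knockout spleens. The labels do not say that shared replicate numbers pair the samples, and for the spleens the deviations do not settle it. With the replicate block no member was called in spleens either. Low members such as Chac1 and Phgdh are limited by their counts.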
